A study of Mus musculus with 10 samples.

Results

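The genes of glycolysis, of the fate of pyruvate and of the tricarboxylic acid (TCA) cycle were followed in 10 RNA-seq libraries of mouse hematopoietic stem cells (HSCs), the cells that rebuild the blood. A list of 46 genes for enzymes, their regulatory kinases and transporters was looked up by symbol in a table of 20270 genes, and all 46 were present. Every one had a deposited value above 0 in all 10 libraries, so the filter on low values removed none. The HSCs had been sorted by flow cytometry from bone marrow of C57BL/6 primary recipient mice, after transplantation of lineage-negative bone marrow cells that were Id1-/- or Id1+/+. Id1 encodes a helix-loop-helix protein that blocks the DNA binding of other helix-loop-helix factors. The 4 groups are Id1-/- stressed (2 libraries), Id1+/+ stressed (2), Id1-/- normal (3) and Id1+/+ normal (3), and transplantation is common to all of them. What the conditions stressed and normal were is not defined in the labels. The labels put all samples at 4 weeks after transplantation, and the series design at 6 weeks. Nothing in them gives the genotype of the recipients, or says whether a library is 1 animal or a pool, so the p-values measure only the spread between these libraries, which may be technical.

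The level of Id1 went against its label. It stood at 9.06 and 8.44 CPM (read counts scaled to library size) in the libraries labelled Id1-/- stressed, against 1.28 and 4.39 CPM in those labelled Id1+/+ stressed (log2 difference 1.88 ± 0.55 (SE), adjusted p = 0.332). Likewise it was 13.2, 10.6 and 9.62 CPM in the libraries labelled Id1-/- normal, against 1.35, 1.72 and 3.17 CPM in those labelled Id1+/+ normal (log2 difference 2.50 ± 0.45 (SE), adjusted p = 0.0175). The table does not show where in the gene these reads fell. The libraries are therefore called KO-labelled and WT-labelled, and every genotype difference given here has a direction only as good as those labels. Estimated depth was 25700000 to 33000000 reads per library, and the lowest member value corresponds to 233 reads. On a principal component analysis of all genes tested, the first component parted all stressed from all normal libraries. The second parted the stressed libraries by label, at 47.2 and 60.8 for KO-labelled A and B and -83.0 and -20.3 for WT-labelled A and B. On it WT-labelled stressed A lay farthest out, and KO-labelled normal A stood apart on the third. Results that change without these A libraries are given with and without.

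Glycolysis converts glucose to pyruvate in the cytosol. Lactate dehydrogenase then interconverts pyruvate and lactate, while the mitochondrial pyruvate carrier and the pyruvate dehydrogenase complex feed pyruvate into the TCA cycle as acetyl-CoA. Pyruvate dehydrogenase kinases switch that complex off. HSCs in bone marrow are known for leaning on glycolysis when quiescent, under the hypoxia-inducible factor HIF-1, and for using more mitochondrial oxidation as they become active.

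Levels between genes were compared per kilobase of the principal transcript, averaged over the 10 libraries. The most abundant members were the enzymes around pyruvate and the triose phosphates. Gapdh, which oxidises glyceraldehyde 3-phosphate, had 762 CPM per kilobase, and Ldha, the lactate dehydrogenase subunit that predominates in glycolytic tissue, had 705 CPM per kilobase. They were followed by the enolase gene Eno1 at 370.5, the pyruvate kinase gene Pkm at 363 and the aldolase gene Aldoa at 307 CPM per kilobase. At the low end stood Pcx (pyruvate carboxylase, which makes oxaloacetate from pyruvate) with 3.08 and Hk2 (an inducible hexokinase) with 5.19 CPM per kilobase. TCA cycle members ranged between 28.3 CPM per kilobase for Sdhc, a membrane anchor of succinate dehydrogenase, and 237 CPM per kilobase for mitochondrial malate dehydrogenase Mdh2. With the length over all annotated exons in place of the principal transcript, Ldha ranked first and Gapdh second, and Pcx and Hk2 kept the last 2 places. Other places depended on the length used. Eno1 then had rank 7, and TCA cycle members ranged between 15.3 CPM per kilobase for Dlst and 157 for Sdhd, with Mdh2 at 96.7.

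**Figure D1:**
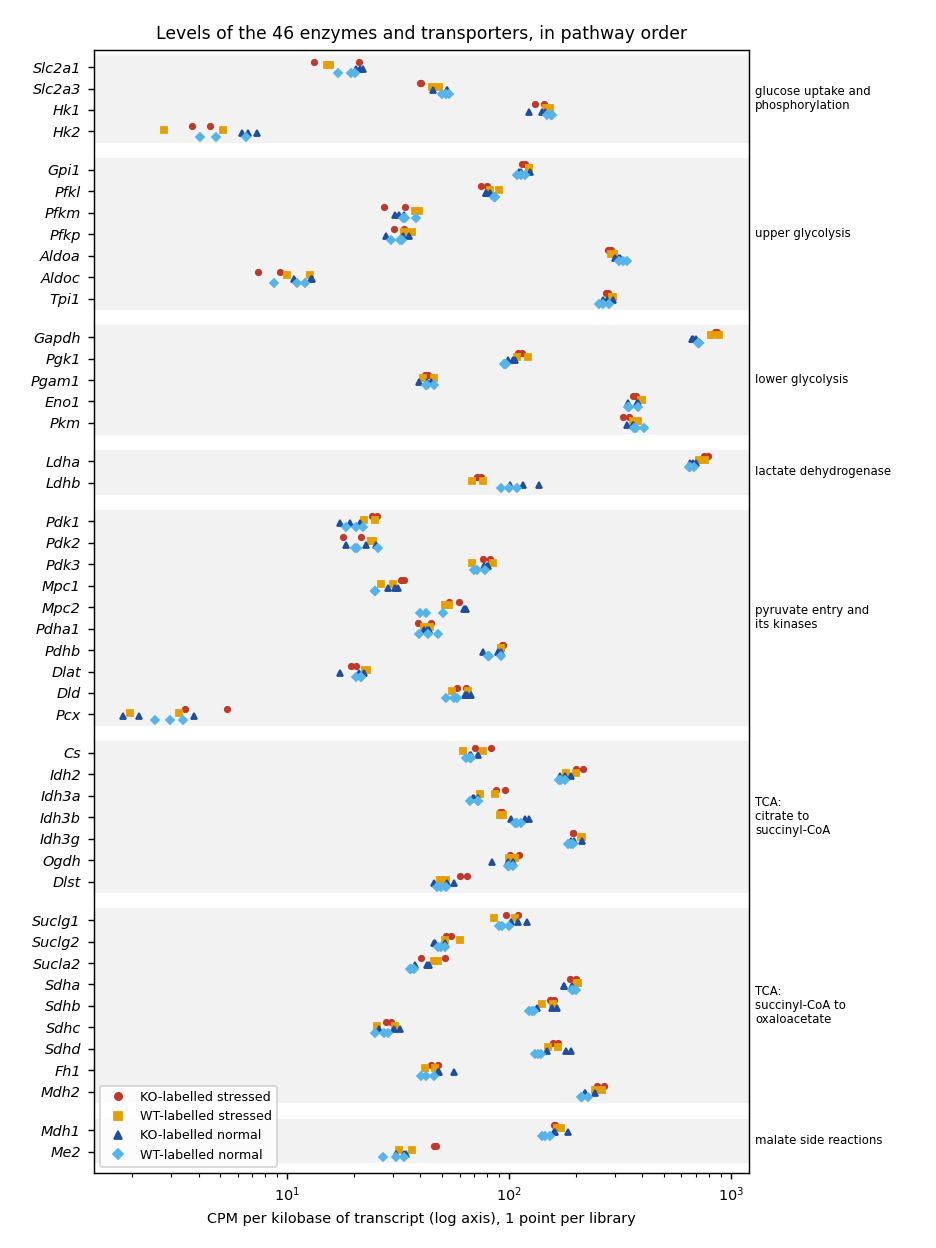
Levels of the 46 members in CPM per kilobase of principal transcript (log axis), 1 point per library, in pathway order, with the group given by the labels. Gapdh and Ldha lie farthest to the right and Pcx and Hk2 farthest to the left, and the points of the 10 libraries lie close together relative to the range across genes.

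The members whose promoters are shown here are Gapdh and Ldha, which were called higher with stress, and Ldhb, the other lactate dehydrogenase subunit, which was called lower. HIF-1 binds a core of ACGTG or GCGTG, and CACGTG, which contains the first, is the E-box read by MYC and by the carbohydrate-response factors. Each window runs from 250 bases before to 50 bases after a RefSeq start (GRCm38.p6), read 5′ to 3′ along the gene, and the capitals mark ACGTG and GCGTG on either strand (written CACGT and CACGC where they lie on the other strand). The Ldha window is chr7:46845554-46845853 on the plus strand, the Gapdh window chr6:125165724-125166023 on the minus strand and the Ldhb window chr6:142507908-142508207 on the minus strand.
Ldha: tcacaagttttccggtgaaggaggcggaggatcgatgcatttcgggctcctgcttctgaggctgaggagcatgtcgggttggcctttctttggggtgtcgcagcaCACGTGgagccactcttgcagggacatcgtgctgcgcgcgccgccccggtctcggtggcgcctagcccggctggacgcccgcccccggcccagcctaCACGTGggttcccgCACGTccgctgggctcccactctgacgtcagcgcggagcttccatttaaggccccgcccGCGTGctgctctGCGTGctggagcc
Gapdh: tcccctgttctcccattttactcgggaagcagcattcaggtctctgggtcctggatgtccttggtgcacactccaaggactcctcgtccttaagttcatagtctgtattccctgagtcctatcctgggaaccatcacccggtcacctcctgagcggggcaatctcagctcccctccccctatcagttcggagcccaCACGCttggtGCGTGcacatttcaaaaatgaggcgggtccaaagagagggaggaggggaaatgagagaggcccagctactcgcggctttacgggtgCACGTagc
Ldhb: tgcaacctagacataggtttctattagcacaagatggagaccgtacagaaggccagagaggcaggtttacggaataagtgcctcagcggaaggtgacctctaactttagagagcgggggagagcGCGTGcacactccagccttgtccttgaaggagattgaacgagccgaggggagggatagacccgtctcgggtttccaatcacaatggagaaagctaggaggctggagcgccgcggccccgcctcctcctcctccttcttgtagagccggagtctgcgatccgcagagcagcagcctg
The Ldha window shown holds 5 marked runs, of which 2 are CACGTG, the Gapdh window 3 and the Ldhb window 1. A second RefSeq promoter of Ldha, chr7:46846832-46847131 on the plus strand, is not shown and holds 2 such runs and 0 CACGTG. Of all 32851 RefSeq mouse promoters of this length, 43.8% hold ACGTG or GCGTG on either strand and 7.15% hold CACGTG. Of the 62 promoters listed for 42 of the members, 72.6% (45) hold ACGTG or GCGTG and 11.3% (7) hold CACGTG. Some of these windows are overlapping starts of the same gene and share a match. Counted by gene, 33 of the 42 hold ACGTG or GCGTG and 5 hold CACGTG. The shares over all promoters are by window and were not matched for base composition. Slc2a3, Idh3a and Me2, the other members called with stress, have no entry in the table used. These matches describe letters, and no binding was measured.

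With stress, calls were few and small, and concerned single genes of the pathway. In the KO-labelled libraries Gapdh, Ldha, Idh3a and Me2 rose with stress and Slc2a3 and Ldhb fell. In the WT-labelled libraries Gapdh and Ldha rose and no member was called lower. The changes were of 0.17 to 0.67 on the log2 scale in size, and they sit at the glyceraldehyde 3-phosphate, lactate, isocitrate and malate steps and at glucose uptake.

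The test was limma's moderated fit of 4 group means to all 10 libraries, with p-values adjusted over the 15143 genes tested (Benjamini-Hochberg), and a gene is called at an adjusted p under 0.05. For stressed against normal KO-labelled libraries, 4 of 46 members were called higher and 2 lower (13.04% of members), where 2.23% of all genes were called higher and 2.28% lower (4.50% in either direction). For stressed against normal WT-labelled libraries, 2 of 46 were called higher and 0 lower (4.35% of members), where 1.55% and 1.75% of all genes were (3.30% in either direction), a share near that background. Without a threshold, 34 of 46 members had a positive log2 difference with stress in the WT-labelled libraries, against 51.1% of all genes, and their median difference was 0.12, against 0.0071 over all genes. Groups did not overlap, with stressed higher, for 22 of the 46 (19.7% of all genes), and with stressed lower for 5 (16.7%). In the KO-labelled libraries 22 of 46 were positive, against 50.1% of all genes, and the members' median difference was -0.0027, against 0.00045 over all genes. Stressed libraries stood above normal ones without overlap for 12 members (16.5% of all genes) and below for 7 (16.6%). The KO-labelled median had either sign on leaving out single libraries, between -0.017 and 0.015. An unadjusted p under 0.05 was reached by 15 of 46 members in the KO-labelled (17.9% of all genes) and 14 of 46 in the WT-labelled libraries (16.8% of all genes). In bulk RNA, fewer cells of a type and less RNA per cell cannot be told apart. The comparisons share libraries pairwise (each group enters one genotype and one stress comparison), so their values stand side by side and are not independent.

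Genotype labels went with a single call among the members. Mpc2, a subunit of the mitochondrial pyruvate carrier, had more RNA in normal HSCs with the KO label than in those with the WT label. Among stressed HSCs no member was called. The genes between glucose 6-phosphate and the triose phosphates stood below the WT-labelled libraries in every KO-labelled stressed library, by small amounts. With 2 libraries in each group this is a weak criterion, and 19.9% of all genes met it.

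For KO-labelled against WT-labelled normal libraries, 1 of 46 members was called higher and 0 lower (2.17% of members), where 1.23% of all genes were called higher and 0.324% lower (1.56% in either direction), again a share near the background. Positive differences numbered 30 of 46 (48.5% of all genes), with a median of 0.053, against -0.0083 over all genes. That median was 0.020 without KO-labelled normal library A, 0.096 without KO-labelled normal library B and 0.0045 with the trend over transcript length removed. At an unadjusted p under 0.05, 10 of 46 members passed (13.9% of all genes). For KO-labelled against WT-labelled stressed libraries the count of members called was 0 with limma in either direction, where 0.0858% of all genes were called higher and 0.0594% lower (0.145% in all). Positive differences numbered 24 of 46 (49.9% of all genes), and 6 of 46 had an unadjusted p under 0.05 (8.88% of all genes). The difference between the stress responses of the 2 genotype labels (the interaction) gave 0 members called, where 0.0132% of all genes were called higher and 0.00660% lower (0.0198% in all). It was positive for 15 of 46 members (49.5% of all genes), with a median of -0.065 against -0.0040 over all genes, and 4 members had an unadjusted p under 0.05 (9.15% of all genes). The interaction median was -0.10 without WT-labelled stressed library B, -0.034 without both libraries that stand apart and -0.038 with the trend over transcript length removed. A stress change called in the KO-labelled libraries alone is therefore not shown to differ from that in the WT-labelled ones. No other tool was run.

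**Figure D2:**
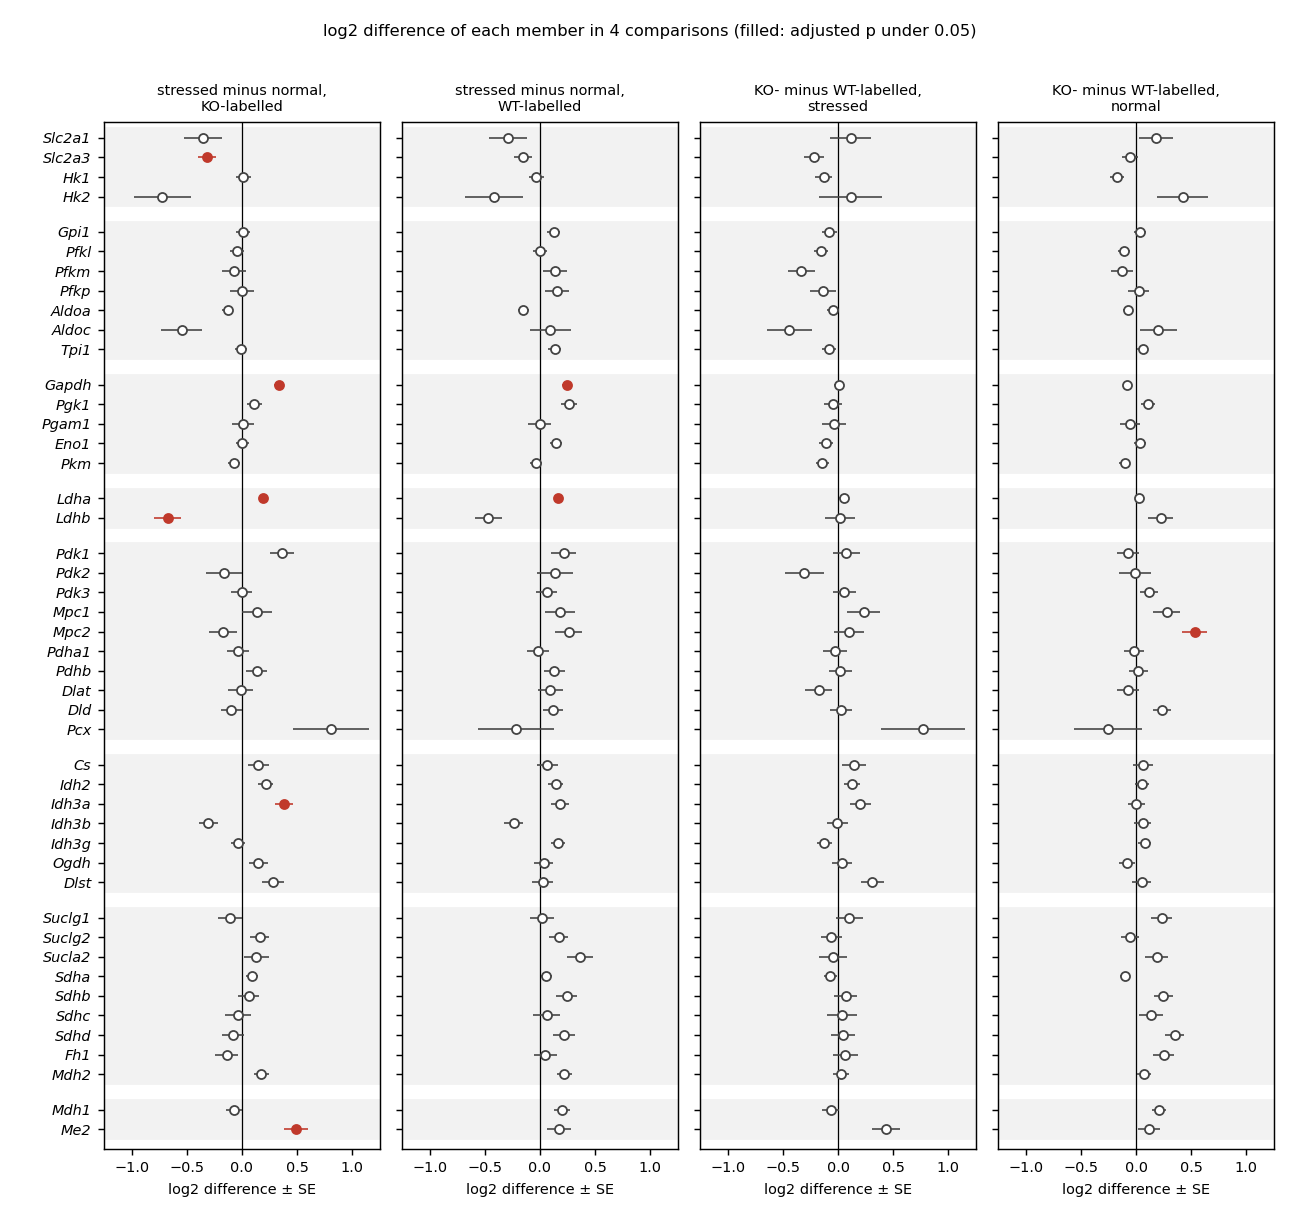
The log2 difference (± SE of the limma fit) of each member in 4 comparisons, with members in pathway order down the page. Filled points are called at an adjusted p under 0.05 over all genes: Slc2a3, Gapdh, Ldha, Ldhb, Idh3a and Me2 for stress in KO-labelled libraries, Gapdh and Ldha for stress in WT-labelled libraries, Mpc2 for the genotype label in normal libraries, and none for the genotype label in stressed libraries.

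Glucose enters blood cells through the facilitative transporters Slc2a1 (GLUT1) and Slc2a3 (GLUT3) and is phosphorylated by the hexokinases. Slc2a3 (mm10, chr6:122727809-122801640) had 158 and 159 CPM in the KO-labelled stressed libraries, against 208, 180.2 and 209 CPM in the KO-labelled normal libraries (log2 difference -0.32 ± 0.081 (SE), adjusted p = 0.0489). Both stressed values lay under the 3 normal ones, which differed among themselves by more than the gap to the nearest of them. With the WT label it had 178 and 192 CPM in the WT-labelled stressed libraries, against 207, 212 and 198 CPM in the WT-labelled normal libraries, again with no overlap, but was not called (log2 difference -0.15, adjusted p = 0.368). The Slc2a3 call is marginal: it was kept under 6 of 22 alternative settings, and among single libraries only leaving out KO-labelled normal B did not end it.

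Slc2a1 had 68.6 and 43.0 CPM in the KO-labelled stressed libraries, 51.0 and 49.3 CPM in the WT-labelled stressed, 67.1, 71.5 and 70.0 CPM in the KO-labelled normal and 55.2, 65.9 and 63.7 CPM in the WT-labelled normal libraries. Stressed and normal KO-labelled libraries overlapped for it, through the higher stressed one. Hk2 had 20.7 and 24.7 CPM in the KO-labelled stressed libraries, against 34.5, 40.6 and 37.0 CPM in the KO-labelled normal libraries (log2 difference -0.72 ± 0.26 (SE), adjusted p = 0.167). It was the most negative member of that comparison, without overlap and not called. Hk1, the constitutive hexokinase, was the more abundant by far and differed little with stress, by 0.011 in KO-labelled and -0.033 in WT-labelled libraries. Its normal libraries did not overlap by genotype label, at 475, 541 and 561 CPM in the KO-labelled normal libraries, against 575, 598 and 603 CPM in the WT-labelled normal libraries (log2 difference -0.18, adjusted p = 0.233).

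The 7 genes of upper glycolysis encode glucose 6-phosphate isomerase (Gpi1), the phosphofructokinase subunits (Pfkl, Pfkm, Pfkp), which catalyse the committing step, 2 aldolases (Aldoa, Aldoc) and triose phosphate isomerase (Tpi1). None was called in any comparison. In KO-labelled against WT-labelled stressed libraries 7 of 7 had negative log2 differences and 7 of 7 did not overlap, with KO-labelled lower, where 19.9% of all genes did so. Differences ran between -0.44 for Aldoc and -0.046 for Aldoa, with a median of -0.13. The separation could be slight, as for Aldoa, with 424 and 437 CPM in the KO-labelled stressed libraries, against 438 and 450 CPM in the WT-labelled stressed ones. Pfkm had 98.2 and 78.8 CPM in the KO-labelled stressed libraries, against 113 and 109 CPM in the WT-labelled stressed libraries (log2 difference -0.33 ± 0.12 (SE), adjusted p = 0.462). Pfkl had 281 and 299 CPM in the KO-labelled stressed libraries, against 339 and 307 CPM in the WT-labelled stressed libraries (log2 difference -0.15, adjusted p = 0.534). With 2 libraries in each group, full separation is a weak criterion, and these values are given as a description.

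With the genes beyond the trioses added, 5 of the 18 members between glucose uptake and lactate had positive differences in KO-labelled against WT-labelled stressed libraries (49.9% of all genes), and 13 were negative. KO-labelled libraries were lower without overlap for 11 of 18 (19.9% of all genes), while 0 were higher without overlap (19.2% of all genes). The corresponding numbers among normal libraries were 4 lower and 2 higher without overlap (8.64% and 10.9% of all genes). The difference between those comparisons is the interaction, which called no member. For Aldoc, the brain-type aldolase and a minor one here, the interaction was the most negative among members (log2 difference -0.64 ± 0.27 (SE), adjusted p = 0.507).

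Gapdh (mm10, chr6:125161715-125166467) had the smallest p of any member for stress with either label. It had 1226 and 1209 CPM in the KO-labelled stressed libraries, against 994, 959.5 and 946 CPM in the KO-labelled normal libraries (log2 difference 0.33 ± 0.040 (SE), adjusted p = 0.000816). With the WT label it had 1258 and 1161 CPM in the WT-labelled stressed libraries, against 1014, 1026 and 1026 CPM in the WT-labelled normal libraries (log2 difference 0.24 ± 0.040 (SE), adjusted p = 0.00704). All 4 stressed values exceeded all 6 normal ones, and the 95% confidence interval of the difference was 0.25 to 0.42 in KO-labelled and 0.16 to 0.33 in WT-labelled libraries. Without WT-labelled stressed library A the WT difference was 0.18 (adjusted p = 0.068), so that call rests on this library. With the trend over transcript length removed it was 0.15 (adjusted p = 0.0507), and Aldoa and Ldhb, both lower, were the members called in that comparison. The KO call was kept under 22 of 23 settings. Normal libraries did not overlap either, with KO-labelled lower by a log2 difference of -0.080 (adjusted p = 0.344).

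The deposited values had been quantile normalized, which ties the level of an abundant gene to its rank. Gapdh ranked 27 to 28 in KO-labelled stressed and 26 to 31 in WT-labelled stressed libraries, against 43 to 48 in KO-labelled normal and 40 to 41 in WT-labelled normal ones (1 is the gene with most reads). Gapdh has 40 near-identical copies among the genes of the table, but its own row holds 97.9% to 98.5% of their summed CPM. Summing them changed neither call.

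Of the remaining lower glycolysis genes none was called. Pgk1, phosphoglycerate kinase, the first ATP-yielding step, had 223 and 198 CPM in the WT-labelled stressed libraries, against 174, 178 and 175 CPM in the WT-labelled normal libraries (log2 difference 0.26 ± 0.072 (SE), adjusted p = 0.0796), with no overlap. Its KO-labelled difference was 0.11 (adjusted p = 0.46), also without overlap. Eno1 had a WT-labelled stress difference of 0.14 and a KO-labelled one of 0.0019. Pkm was lower in KO-labelled than WT-labelled libraries without overlap in both conditions, with log2 differences of -0.14 in stressed and -0.10 in normal libraries, neither called (adjusted p = 0.525 and 0.369). Pgam1, phosphoglycerate mutase, overlapped in all 4 comparisons.

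At the lactate step, Ldha rose and Ldhb fell with stress in KO-labelled libraries. Lactate dehydrogenase is a tetramer of A and B subunits, and B-rich forms predominate in oxidative tissue such as heart. Ldha (mm10, chr7:46841475-46855627) had 1392 and 1337 CPM in the KO-labelled stressed libraries, against 1226, 1161 and 1195 CPM in the KO-labelled normal libraries (log2 difference 0.19 ± 0.040 (SE), adjusted p = 0.0197). With the WT label Ldha had 1276 and 1354 CPM in the WT-labelled stressed libraries, against 1209, 1161 and 1144 CPM in the WT-labelled normal libraries (log2 difference 0.17 ± 0.040 (SE), adjusted p = 0.0488). Every stressed library exceeded every normal one for Ldha.

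Ldhb (mm10, chr6:142490249-142507957) had 93.4 and 98.1 CPM in the KO-labelled stressed libraries, against 178, 133 and 150.5 CPM in the KO-labelled normal libraries (log2 difference -0.67 ± 0.12 (SE), adjusted p = 0.00996). For the WT label it had 100.2 and 89.4 CPM in the WT-labelled stressed libraries, against 142, 121 and 130.3 CPM in the WT-labelled normal libraries. This difference, -0.47 ± 0.12 (SE), had an adjusted p of 0.07 and was not called. The 4 stressed libraries lay at or under 100.2 CPM and the 6 normal ones above them, so that Ldhb separates the conditions in both genotype labels. The interaction for Ldhb was -0.21 ± 0.17 (95% interval -0.59 to 0.18, adjusted p = 0.757). The KO-labelled Ldhb call was kept under 19 of 23 settings, the KO-labelled Ldha call under 16 of 23 and the WT-labelled Ldha call under 8 of 23.

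**Figure D3:**
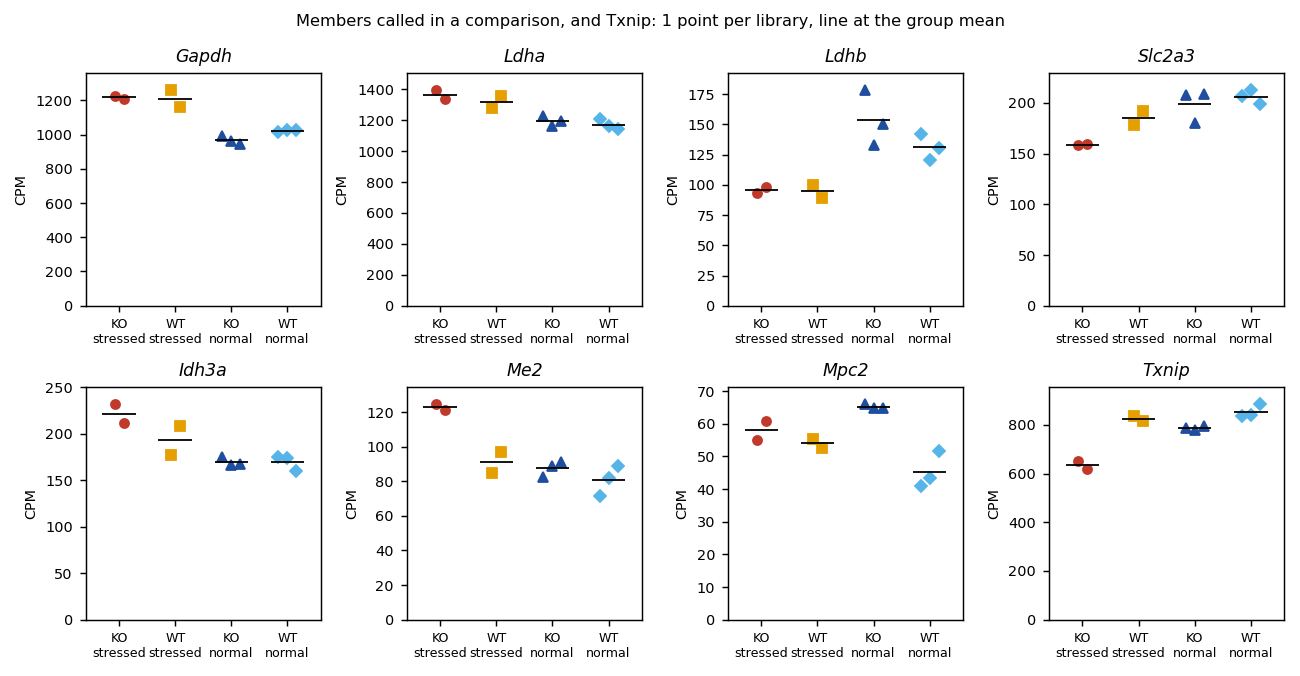
CPM of the 7 members called in any comparison, and of the regulator Txnip, by group as labelled, with 1 point per library, a line at the group mean and axes starting at 0. Gapdh and Ldha lie higher and Ldhb lower in all stressed libraries, Me2 and Txnip stand apart in the KO-labelled stressed libraries, and Mpc2 is highest in the KO-labelled normal ones.

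Per kilobase, Ldha made up 91.7 and 91.0% of the summed Ldha and Ldhb signal in the KO-labelled stressed libraries and 90.4 and 91.8% in the WT-labelled stressed ones. In normal libraries the share was 83.6, 86.6 and 85.4% with the KO label and 86.2, 87.6 and 86.6% with the WT label. Stressed and normal shares do not overlap, and the same holds with the length over all annotated exons, where the share ranged between 76.5% and 87.8% over the 10 libraries. The ratio of Ldha to Ldhb per kilobase was 11.0 and 10.1 in KO-labelled stressed libraries, against 5.08, 6.46 and 5.86 in KO-labelled normal ones. These shares were formed after the values of both genes were seen and carry no test.

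Per kilobase of principal transcript, other isoenzyme families had 1 leading gene or a near-even split in every library. Hk1 held 84.6% to 89.6% of the summed Hk1, Hk2 and Hk3 signal per kilobase over the 10 libraries. Hk3 held 11.8 and 11.1% in KO-labelled stressed and 12.4 and 13.8% in WT-labelled stressed libraries, against 8.98, 8.45 and 10.4% in KO-labelled normal and 10.6, 7.61 and 8.84% in WT-labelled normal ones, so that its stressed shares lay above the normal ones without overlap. The liver-type Pfkl held 52.6% to 58.1% of phosphofructokinase, and Aldoa 95.9% to 97.5% of aldolase. Pdk3 was the main pyruvate dehydrogenase kinase with 57.7% to 67.9%. Of the succinyl-CoA ligase beta subunits, the GTP-forming Suclg2 held 51.4% to 59.1%, so that by this length it and the ATP-forming Sucla2 were of like level. With the length over all annotated exons Suclg2 held more, 57.9% to 65.3%, against 34.7% to 42.1% for Sucla2. By that length Hk1 held 73.8% to 81.4% of hexokinase.

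**Figure D4:**
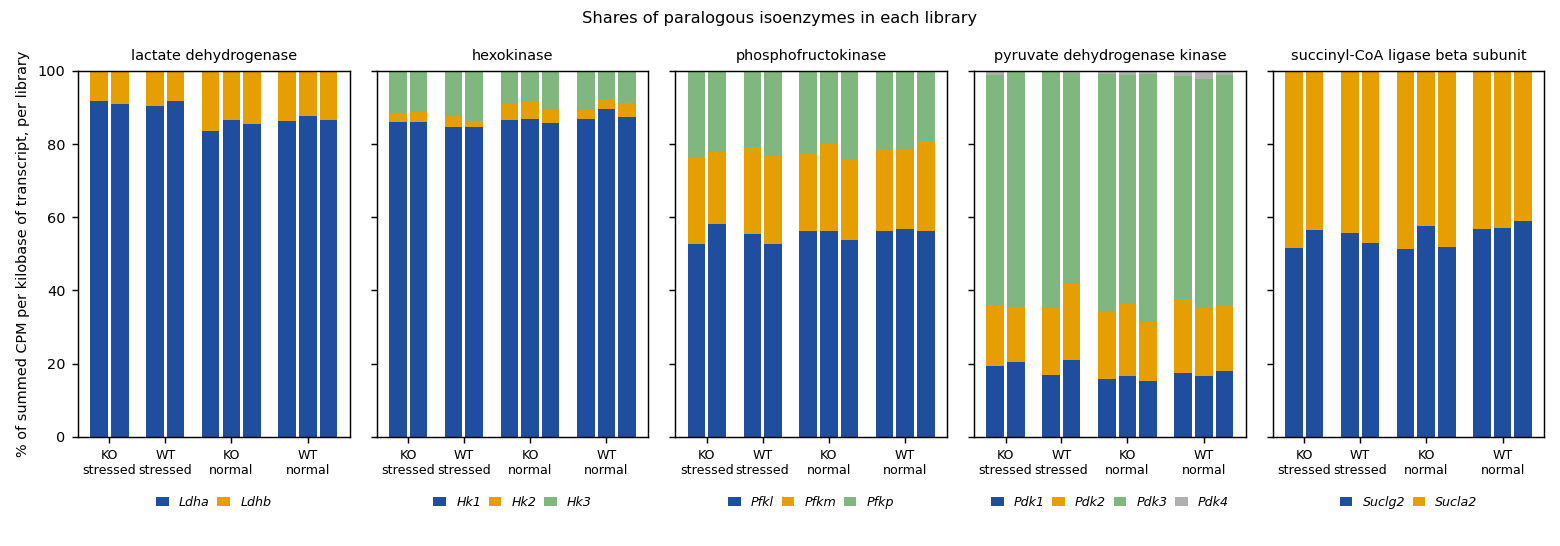
Share of each isoenzyme in the summed CPM per kilobase of its family, 1 bar per library, grouped by label. The Ldha share is 91.3% and 91.1% on average in KO- and WT-labelled stressed libraries, against 85.2% and 86.8% in KO- and WT-labelled normal ones, and Hk3 also takes a larger share in all stressed libraries.

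Among the 10 genes of pyruvate entry, Mpc2 (mm10, chr1:165460637-165481214) was called for the genotype label. It had 65.9, 64.8 and 64.7 CPM in the KO-labelled normal libraries, against 41.0, 43.2 and 51.8 CPM in the WT-labelled normal libraries (log2 difference 0.53 ± 0.11 (SE), adjusted p = 0.0373). The 3 KO-labelled values lay close together and above all 3 WT-labelled ones, of which C was the highest. Its partner subunit Mpc1 had 29.5, 27.3 and 30.2 CPM in the KO-labelled normal libraries, against 23.8, 24.0 and 23.8 CPM in the WT-labelled normal libraries (log2 difference 0.28, adjusted p = 0.338), also without overlap and not called. Reads of Mpc1 are uncertain, since a near-identical copy in the table brings the share of its own row to between 78.5% and 84.2% of the sum of both, and 23.1% of its exon length overlaps another gene.

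With stress, Mpc2 was lower without overlap in KO-labelled libraries (54.9 and 60.9 CPM stressed, log2 difference -0.17) and higher without overlap in WT-labelled ones (55.4 and 52.6 CPM stressed, log2 difference 0.26), and neither was called. In stressed libraries the Mpc2 difference was 0.10 ± 0.14 (SE), with overlap, and the interaction was -0.43 (95% interval -0.81 to -0.046, adjusted p = 0.499). The Mpc2 call was kept under 7 of 22 alternative settings, and it was lost on leaving out any library but WT-labelled normal C. Among genes at the members' level, differences between KO-labelled and WT-labelled normal libraries followed transcript length, with a median of 0.27 under 1 kb, 0.093 for 1 to 2 kb, -0.014 for 2 to 4 kb and -0.082 over 4 kb. The principal transcript of Mpc2 has 1025 bases. With that trend removed (an alternative added after seeing the data) its difference was 0.38 (adjusted p = 0.212).

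The enzymes of the pyruvate dehydrogenase complex itself stayed uncalled. Dld, the dihydrolipoyl dehydrogenase that this complex shares with others, had 172, 164 and 162 CPM in the KO-labelled normal libraries, against 133, 148 and 144 CPM in the WT-labelled normal libraries (log2 difference 0.23, adjusted p = 0.226), without overlap. Pdk1, a kinase of the complex and a HIF-1 target, had 132 and 126 CPM in the KO-labelled stressed libraries, against 99.98, 110.3 and 90.4 CPM in the KO-labelled normal libraries (log2 difference 0.36 ± 0.11 (SE), adjusted p = 0.101), also without overlap. In WT-labelled libraries its stress difference was 0.21 (adjusted p = 0.364). Pcx had the most positive difference of that comparison, 0.81 ± 0.34 (SE), with 14.1 and 21.9 CPM in the KO-labelled stressed libraries, against 15.5, 8.78 and 7.45 CPM in the KO-labelled normal libraries. Those groups overlapped, and the adjusted p was 0.248.

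In the first part of the TCA cycle the subunits of the NAD-dependent isocitrate dehydrogenase differed from each other. Idh3a (mm10, chr9:54586334-54604661), its catalytic subunit, had 232 and 211 CPM in the KO-labelled stressed libraries, against 175, 167 and 168 CPM in the KO-labelled normal libraries (log2 difference 0.38 ± 0.085 (SE), adjusted p = 0.0286). In WT-labelled libraries Idh3a had 177 and 208 CPM in the WT-labelled stressed libraries, against 175, 174 and 160.4 CPM in the WT-labelled normal libraries (log2 difference 0.18, adjusted p = 0.313). The KO-labelled call was kept under 15 of 22 settings, and was lost without either KO-labelled stressed library and without KO-labelled normal B or C. Stressed values were the higher ones without overlap in both, and 1 WT-labelled stressed library lay just above its normal ones.

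Idh3b, a regulatory subunit, ran the other way, with 151 and 147 CPM in the KO-labelled stressed libraries, against 192, 166 and 198 CPM in the KO-labelled normal libraries (log2 difference -0.31 ± 0.085 (SE), adjusted p = 0.0729). The WT-labelled values had the same order, 153 and 147 CPM in the WT-labelled stressed libraries, against 183, 177 and 172 CPM in the WT-labelled normal libraries (log2 difference -0.24, adjusted p = 0.167). Stressed libraries lay under normal ones without overlap in both labels, and neither difference was called. Idh3g, the third subunit, had -0.038 in KO-labelled and 0.16 in WT-labelled libraries. The NADP-dependent mitochondrial Idh2 had 0.21 and 0.14, without overlap in either (adjusted p = 0.117 and 0.316).

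Dlst, the succinyltransferase core of the 2-oxoglutarate dehydrogenase complex, had 166 and 179.8 CPM in the KO-labelled stressed libraries, against 144 and 136 CPM in the WT-labelled stressed libraries (log2 difference 0.31 ± 0.10 (SE), adjusted p = 0.422). The KO-labelled stressed libraries were also above the KO-labelled normal ones, at 156, 127 and 145 CPM, by 0.28 (adjusted p = 0.14), and neither comparison was called. Citrate synthase (Cs) and Ogdh overlapped in all 4 comparisons.

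Between succinyl-CoA and oxaloacetate, 9 of 9 members had positive stress differences in WT-labelled libraries, against 51.1% of all genes, and 6 of 9 did not overlap (19.7% of all genes), with a median of 0.17 and none called. Sucla2 had 107 and 102 CPM in the WT-labelled stressed libraries, against 83.5, 80.6 and 79.6 CPM in the WT-labelled normal libraries (log2 difference 0.36 ± 0.12 (SE), adjusted p = 0.124), and Mdh2 had 385 and 355 CPM in the WT-labelled stressed libraries, against 332, 309 and 310.1 CPM in the WT-labelled normal libraries (log2 difference 0.22, adjusted p = 0.118). In KO-labelled libraries 5 of 9 were positive (50.1% of all genes), with a median of 0.063. Stress differences in WT-labelled libraries followed length, with a median over all genes at the members' level of 0.16 under 1 kb and -0.070 over 4 kb. With the trend over transcript length removed, the median of all 46 members was 0.078, against 0.12 with it.

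Of the 11 members higher without overlap in KO-labelled normal libraries, 5 belong to the same stretch of the cycle. There 7 of 9 were positive (48.5% of all genes), 5 without overlap (10.9% of all genes), with a median of 0.19, and none was called. Sdhd, a membrane anchor of succinate dehydrogenase, had 234, 183 and 222 CPM in the KO-labelled normal libraries, against 167, 161 and 172 CPM in the WT-labelled normal libraries (log2 difference 0.35 ± 0.089 (SE), adjusted p = 0.0928). Sdhb, its iron-sulfur subunit, had 188, 152 and 178 CPM in the KO-labelled normal libraries, against 145, 149 and 141 CPM in the WT-labelled normal libraries (log2 difference 0.25, adjusted p = 0.214). For both genes the KO-labelled values were highest in library A, which stands apart, and lowest in library B. Their principal transcripts are short, with 1231 bases for Sdhd and 1142 for Sdhb. Sdha, the flavoprotein subunit, had a negative difference of -0.10 and overlapped.

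On the malate side, Me2 (mm10, chr18:73769903-73815449), the mitochondrial NAD-dependent malic enzyme that turns malate into pyruvate, had 124 and 121 CPM in the KO-labelled stressed libraries, against 82.2, 89.1 and 91.1 CPM in the KO-labelled normal libraries (log2 difference 0.49 ± 0.11 (SE), adjusted p = 0.0313). Stressed WT-labelled libraries had 84.9 and 97.1 CPM, so that KO-labelled stressed libraries stood above them too, by 0.43 ± 0.12 (SE). That was the smallest p of any member in this comparison, and it was not called (adjusted p = 0.309). The WT-labelled stress difference was 0.17 with overlap, and the interaction 0.32 had a 95% interval of -0.030 to 0.66. The stress call was kept under 14 of 22 settings, and it was lost without any 1 of the KO-labelled libraries. Cytosolic malate dehydrogenase Mdh1 had 394, 344 and 340.5 CPM in the KO-labelled normal libraries, against 325, 300.2 and 308 CPM in the WT-labelled normal libraries (log2 difference 0.21 ± 0.062 (SE), adjusted p = 0.157), without overlap.

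**Figure D5:**
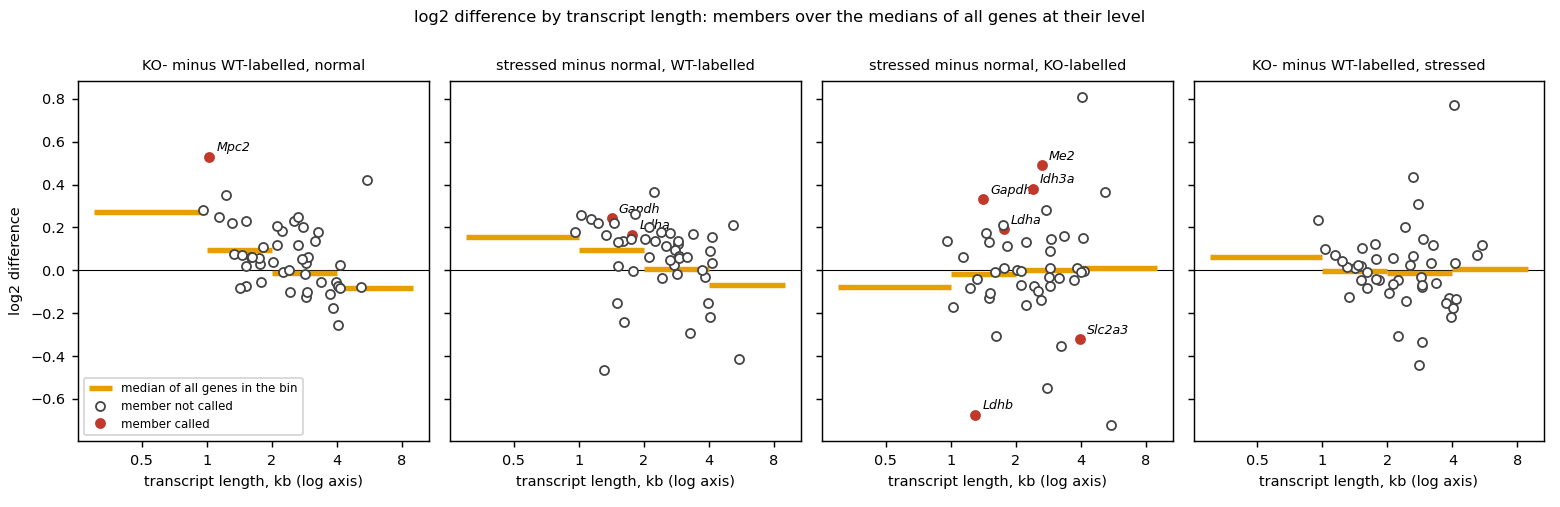
The log2 difference of each member against the length of its principal transcript (log axis) in 4 comparisons, with bars at the median of all genes of the members' level range in each length bin. The bars descend from left to right in KO- minus WT-labelled normal libraries, where Mpc2 is the member called, and in stressed minus normal WT-labelled libraries, where Gapdh and Ldha are.

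Genes around the pathway were taken from lists chosen with earlier results of these data known. None of the 25 further glycolysis, pyruvate and TCA genes that passed the filter (of 32 listed) was called in any comparison, and none of 10 genes of the pentose phosphate pathway. Of 21 regulators of glycolytic flux, Txnip, which restrains glucose uptake, was called lower in both comparisons with the KO-labelled stressed libraries. Of all genes, 0.0594% were called lower against WT-labelled stressed and 2.28% against KO-labelled normal libraries. It had 653 and 617 CPM there, against 835 and 814 CPM in WT-labelled stressed (log2 difference -0.38 ± 0.046 (SE), adjusted p = 0.00665) and 788, 779.9 and 797 CPM in KO-labelled normal libraries (log2 difference -0.31 ± 0.042 (SE), adjusted p = 0.00156). Both stressed KO-labelled values lay below all other libraries, and the call against WT-labelled stressed libraries was lost without KO-labelled stressed library B (adjusted p = 0.0899). The interaction for Txnip was -0.26 (adjusted p = 0.211). Hif1a itself had 114 and 98.4 CPM in KO-labelled stressed and 87.1 and 87.9 CPM in WT-labelled stressed libraries, against 102, 122 and 104 CPM in KO-labelled normal and 103, 102 and 110.4 CPM in WT-labelled normal ones, and was not called.

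Of 14 HIF-1 targets outside glycolysis, 2 were called higher with stress in KO-labelled libraries (2.23% of all genes) and 1 in WT-labelled libraries (1.55% of all genes). Ndrg1, a stress-induced cytosolic protein, had 196 and 184 CPM in the KO-labelled stressed libraries, against 119, 144 and 149 CPM in the KO-labelled normal libraries (log2 difference 0.48 ± 0.096 (SE), adjusted p = 0.0163). In WT-labelled libraries it had 214 and 213 CPM in the WT-labelled stressed libraries, against 144, 149 and 153 CPM in the WT-labelled normal libraries (log2 difference 0.52 ± 0.096 (SE), adjusted p = 0.0134). Kdm3a, a histone demethylase, rose with stress in KO-labelled libraries by 0.43 (adjusted p = 0.0314), and it was lower in KO-labelled normal libraries, at 104, 87.7 and 101 CPM in the KO-labelled normal libraries, against 148, 134 and 157 CPM in the WT-labelled normal libraries (log2 difference -0.58 ± 0.087 (SE), adjusted p = 0.00549). The remaining members of that list were not called, and 5 of 14 had positive stress differences in KO-labelled libraries, against 50.1% of all genes. Of 10 shuttle and glutamine genes 1 was called, higher with stress in KO-labelled libraries (2.23% of all genes). This was Got2, the mitochondrial aspartate aminotransferase of the malate-aspartate shuttle. It had 211 and 215 CPM in the KO-labelled stressed libraries, against 156, 177 and 167 CPM in the KO-labelled normal libraries (log2 difference 0.36 ± 0.081 (SE), adjusted p = 0.0307).

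Markers of HSCs and of other cell types differed between the same groups. Summed CPM of 9 HSC markers was 3456 to 3507 in KO-labelled stressed and 3756 to 3782 in WT-labelled stressed libraries, against 3948 to 4118 in KO-labelled normal and 4535 to 4815 in WT-labelled normal ones, and all 9 were detected. Among them Hlf was called lower with stress in both genotype labels. Sums over 4 megakaryocyte markers were 1054 to 1068 CPM in KO-labelled stressed and 997 to 999.6 CPM in WT-labelled stressed libraries, against 568 to 615 and 617 to 660.5 CPM in KO- and WT-labelled normal ones. Of these, Pf4 and Itga2b were called higher with stress in both genotype labels, Pf4 by 1.31 in KO-labelled and 1.16 in WT-labelled libraries. The 5 of 6 B and plasma cell markers in the table summed to 162 to 171 CPM in KO-labelled stressed libraries and to at most 9.61 CPM in any other, and Igkc and Jchain were called higher there in both comparisons. Erythroid markers summed to 103 to 114 and 73.2 to 75.5 CPM in KO- and WT-labelled stressed libraries, against 171 to 180.5 and 154 to 175 CPM in KO- and WT-labelled normal ones. Granulocyte and monocyte markers summed to 385 to 387 CPM in KO-labelled stressed libraries, against 394 to 413 CPM in WT-labelled stressed ones, and to 426 to 467 CPM in KO-labelled normal libraries, against 337 to 374 CPM in WT-labelled normal ones. Most of each sum is Lyz2, at 271 and 283 CPM in KO-labelled and 320 and 299 CPM in WT-labelled stressed libraries. Single markers went both ways there. KO-labelled stressed libraries were higher without overlap for 3 of 6, the less abundant Mpo, Elane and Ctsg (19.2% of all genes). They were lower without overlap for 1 (19.9% of all genes), and 0 were called in that comparison. Among normal libraries, 6 of 6 had positive differences for the KO label (48.5% of all genes). Of these, 5 were higher without overlap (10.9% of all genes). The T cell markers Cd3e, Cd3d and Cd8a are not listed in the table used. The NK cell gene Nkg7 had 95.6 to 95.98 CPM in KO-labelled stressed and 109.6 to 118 CPM in WT-labelled stressed libraries, against 58.8 to 65.4 and 52.2 to 57.9 CPM in KO- and WT-labelled normal ones. Stromal and endothelial markers summed to at most 2.58 CPM. The part of these cells in the stress and genotype differences of the enzymes was not tested.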

How the data were processed

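RNA was sequenced from sorted HSCs in 10 libraries of 4 groups. Bowtie2, featureCounts and mm10 are named, without versions, per the submitters' processing notes. The authors deposited log2 CPM per gene. The name of the deposited table credits limma voom, and the near-identical distribution of values in all libraries is that of quantile normalization, under which genes of equal rank get equal values. Depth was estimated from the ladder of distinct low values, each read as a whole count plus 0.5. The single result of 1 marker gene is not reported here. Use of strand in counting is not stated, so overlapping and antisense genes cannot be told apart.

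Genes above 0 in at least 2 libraries were kept (15143 of 20270). A linear model of 4 group means on all libraries (limma 3.58.1, R 4.3.3) left 6 residual degrees of freedom, and variances were moderated along the mean level. p-values were adjusted by Benjamini-Hochberg over all genes kept, two-sided, with calls under 0.05. The fit was tested on simulated data, but only with planted differences larger than those of the members called. That test does not bear on differences as small as theirs. Members, lists and the naming rule were chosen with earlier results of these data known. By that rule each member called is named, with up to 2 more per step and comparison by smallest p and the extremes in level or difference, and values of a named member may be given in other comparisons too. Sdhc and Hk3 were named after their values were seen. Context lists name each gene called and up to 4 more per comparison by smallest p. Positions come from GENCODE vM21, which held 20199 of the identifiers, and lengths from the longest APPRIS principal transcript with a CCDS where there was one. Copies were sought with blastn 2.17.0 (95% identity over 200 bases), promoters taken from RefSeq (GRCm38.p6), and figures drawn with matplotlib 3.10.9. Alternatives changed the moderation, filter, pseudocount (1 CPM), centring, library weights, replicate block, libraries, threshold, length trend and gene copies.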

Additional observations from a re-analysis of the deposited data

How the results depend on the processing

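For the genotype label in stressed libraries and for the interaction, the count of members called was 0 under every setting tried. With variances not moderated along the mean level it was 0 in all 5 comparisons, so each member call rests on that moderation. For KO-labelled against WT-labelled normal libraries the count, 1, was 0 with library weights, 0 in the fit of only the libraries compared, 0 without KO-labelled normal A and WT-labelled stressed A (chosen after seeing the data) and 2 at an adjusted p under 0.10, and between 0 and 1 on leaving out single libraries (1 without KO-labelled normal B, Sdhd, or WT-labelled normal C, Mpc2, and 0 without any other). With the trend over transcript length removed (chosen after seeing the data) the 1 member called was Gapdh, lower, and not Mpc2. For stress in KO-labelled libraries the count, 6, was 1 with only the libraries compared, 1 (without KO-labelled stressed B) to 5 on leaving out single libraries, with 2 without KO-labelled stressed A, 2 without KO-labelled normal C, and 4 without KO-labelled normal A or B. Gapdh was called in each of these. For stress in WT-labelled libraries the count, 2, was 1 with no filter, 1 with a pseudocount of 1 CPM, 1 with only the libraries compared and 4 at 0.10, and 0 (without WT-labelled stressed A) to 3 (without KO-labelled normal A or B) on leaving out single libraries, and 1 without any other. With transcript length removed it was 2, Aldoa and Ldhb, both lower, and the Gapdh difference was 0.15 (adjusted p = 0.0507). The alternatives were run for the calls of the 7 members and of Txnip, and no such difference changed sign under any setting, and summing gene copies changed no call. The cause of these losses was not tested. Depth was at least 233 reads for any member value, and the stressed groups have 2 libraries each.

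With the replicate block (the letter as a fixed term) the count was 0 for the genotype label in normal libraries, 3 for stress in KO-labelled (Gapdh, Ldhb, Me2) and 1 in WT-labelled libraries (Gapdh). No pairing by letter was seen in the values: same-letter correlations of deviations from group means were -0.024 to 0.038 over 13 pairs, 0 of them above 0.1. Of 10 libraries, 4 correlated best with their own letter. Deviations mirror each other in the groups of 2 libraries, so these correlations are not independent. They cannot show whether libraries of the same letter share an animal or a batch.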
